A study of Homo sapiens with 12 samples.

Results

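The 3 libraries described here come from MV3 cells that received no vesicles. MV3 is an established human melanoma line. In the labels these libraries are called Ctrl, and they are 3 of the 12 libraries of the series, chosen by that label alone. Wells of the Ctrl group had PBS added for 24 h. The other 3 groups, M0 EV, M1 EV and M2 EV, also hold 3 libraries each, and their wells had extracellular vesicles (EVs) from THP-1 cells added for 24 h, at 1e10 particles per well. THP-1 is a human monocytic leukaemia line, here turned into macrophages of an M0, M1 or M2 state for 48 h before the vesicles were collected. All 4 groups, Ctrl included, had been moved to medium with 1% serum depleted of vesicles 3 h before the addition, so the Ctrl state is that of cells in low serum. Replicates carry numbers in the labels that are not tied to separate cultures, so every SD below is a spread between libraries that may be technical. Every SE, adjusted p and call below rests on the same kind of spread. RNA was enriched for poly(A), and a level in these bulk libraries cannot tell fewer cells of a kind from less RNA per cell.

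Melanoma cells keep parts of the programme of the melanocyte, a pigment cell that arises from the neural crest. In pigmented melanoma the transcription factors SOX10 and MITF switch on the genes of melanin synthesis. Melanomas can also exist in a state without this programme, in which the receptor kinase AXL, EGFR, matrix genes and AP-1 factors such as FOSL1 and JUN are typically high. Along this axis the melanocytic, neural crest-like and undifferentiated states are commonly told apart.

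The Ctrl libraries held 9945769, 9693930 and 11249689 gene counts. The lists of genes used here were compared with the genes of the whole table. Of 28084 genes, 12741 (45.4%) had a mean of 1 CPM (counts scaled to a common library size) or more in Ctrl, and 9671 (34.4%) had no count in any of the 3 libraries. Among 19218 protein-coding genes, 11598 (60.3%) were at 1 CPM or more and 4523 (23.5%) had no count. Of 5095 long noncoding RNA genes, 796 were at 1 CPM or more. No count over the 3 libraries allows up to 3 counts, or 0.0971 CPM. Levels of single genes are ranked below only as RPKM, which is CPM per kilobase of transcript. The 100 highest genes took 16.4% to 16.6% of the counts of a library. By RPKM the highest among genes with a transcript length were GAPDH (4341 ± 93.6 RPKM, SD, n = 3), ENO1 (3458 ± 103 RPKM), TMSB10 (3448 ± 135 RPKM), FTL, ACTB and VIM. ENO1 and TMSB10 differed by less than the SD of either. The top genes were thus a mix of glycolytic, cytoskeletal, iron storage and ribosomal protein genes.

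SOX10 and MITF, the leading factors of the melanocytic state, were at or near 0 in these cells. SOX10, the crest and melanocyte factor, had 0 counts in each of the 3 Ctrl libraries. MITF, the master regulator of pigment cells, had 8, 7.5 and 9 counts, or 0.806 ± 0.0129 CPM (SD, n = 3). The MITF value rests on the highest of 13 RefSeq transcripts, which had 24.5 counts over the group, and the lowest had 2.5. Of 20 lineage factors, 9 were at 1 CPM or more, against 60.3% of protein-coding genes, and 6 had no count.

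Several other lineage factors were present. SOX9, a crest and cartilage factor, had 110.9, 112.9 and 110.1 CPM. PAX3, an upstream activator of MITF, had 15.98, 15.91 and 18.11 CPM. TFAP2A, a crest factor, had 21.47, 20.22 and 21.48 CPM. All 3 genes were thus counted in every library in which SOX10 had none. By RPKM the order was SOX9 (28.3 ± 0.375), MSX1 (26.9 ± 1.69), TFE3 (24.5), MYC (23.1), PAX3 (7.38 ± 0.553), ZIC1 (6.5 ± 0.498) and TFAP2A (5.5 ± 0.189). SOX9 and MSX1 differed by less than the SD of MSX1, and PAX3 and ZIC1 by less than the sum of their SDs. MITF stood below all of these at 0.168 ± 0.00268 RPKM.

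Pigment genes ranged from no count to over 100 CPM. Among genes of melanin synthesis and the melanosome, TYR, the rate-limiting enzyme, had 0 counts in each library, DCT had 0.5 counts over the group and PMEL, the fibril protein of the melanosome, had 1.5, 0.5 and 1 counts. MLANA, a melanosome protein and tumour antigen, had 7.5, 6.5 and 9.5 counts, or 0.768 ± 0.139 CPM. Other pigment genes were well counted. GPNMB, a melanosome protein related to PMEL, had 31.66, 31.21 and 38.26 CPM, and ATP7A, which supplies copper to TYR, had 30.1 ± 0.407 CPM. MLPH and MYO5A, which link melanosomes to actin with RAB27A, had 127.4, 124.3 and 132.3 CPM and 167.6, 169 and 159.1 CPM. GPR143, a melanosomal receptor, had 64.5 ± 3.35 CPM, and RAB32, a traffic GTPase, had 27.8 ± 0.399 CPM. MC1R, the melanocortin receptor that drives pigmentation, had 73.91, 66.52 and 74.03 CPM. In GENCODE 29, 21.4% of the exon bases of MC1R lie in an unnamed gene model on the same strand that also covers TUBB3 exons. In all, 11 of 22 pigment genes (50%) were at 1 CPM or more, against 60.3% of protein-coding genes, and 3 had no count. The 11 include CDK2, a cell cycle kinase, at 75.31, 73.91 and 73.85 CPM.

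**Figure D1:**
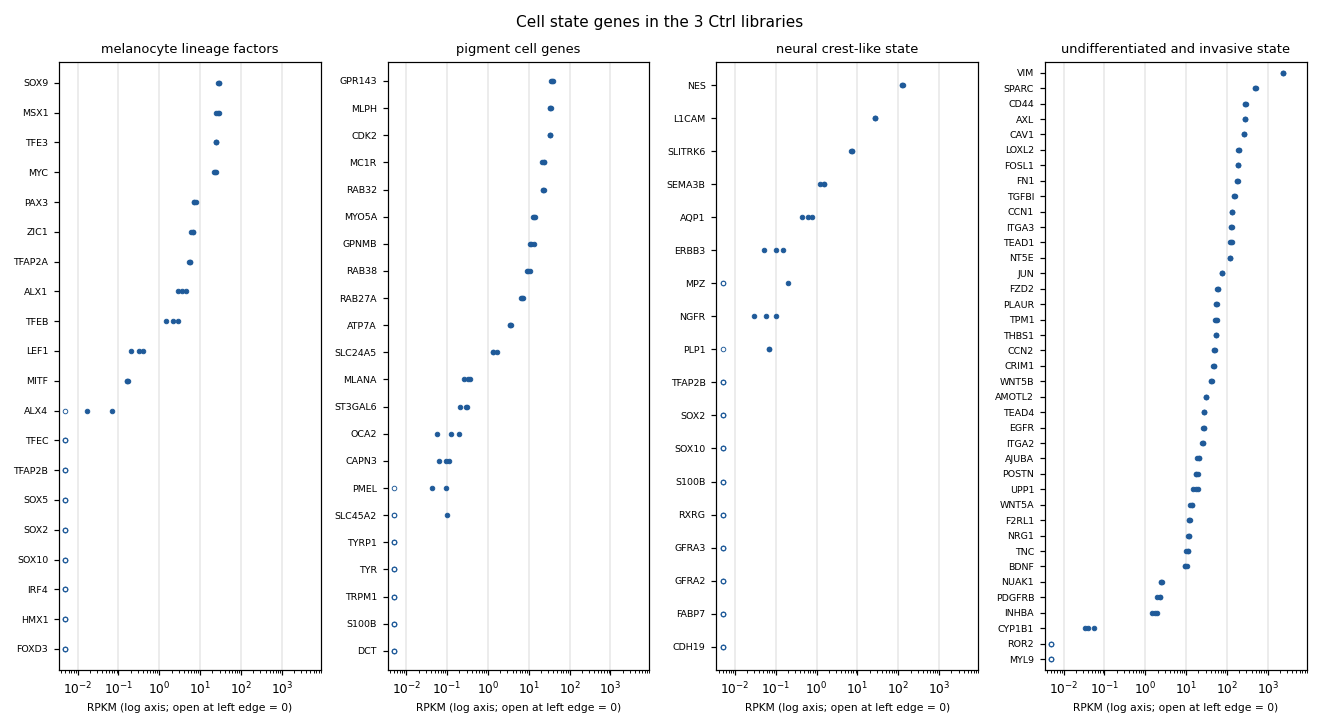
Level of the genes with a transcript length in 4 lists of state genes, 1 gene of the invasive list left out, in RPKM on a log axis, with 1 point for each of the 3 Ctrl libraries and open points at the left edge for a level of 0. SOX10, MITF, TYR and NGFR lie at or near the left edge, while VIM, SPARC, CD44 and AXL lie at the right, and the points of the highly expressed genes fall on top of each other.

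Markers of the neural crest-like state were present in part. NES, an intermediate filament of stem-like cells, had 695.2, 715.8 and 681.5 CPM. L1CAM, an adhesion molecule of migrating neurons, had 136.8 ± 1.97 CPM and SLITRK6 30.1 ± 0.567 CPM. NGFR, the receptor by which this state is usually recognised, had only 2, 1 and 3.5 counts, and 7 of 18 genes of the list had no count. Only 5 of the 18 reached 1 CPM. NES, L1CAM and SLITRK6 were thus on in each library, and NGFR was near 0.

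Genes of the undifferentiated and invasive state were nearly all present. Of 40 genes, 37 were at 1 CPM or more, all 37 were at 10 CPM or more and 22 were at 100 CPM or more, and 2 had no count. AXL had 1323, 1297 and 1309 CPM. VIM, the mesenchymal filament, had 4970, 5059 and 5153 CPM. EGFR had 262.3, 268 and 254.2 CPM. By RPKM, VIM (2370 ± 42.9) led SPARC (500.2 ± 14.8), CD44 (282.6 ± 4.65), AXL (276.5 ± 2.79), CAV1 (261.9 ± 2.92), LOXL2 (189.6) and FOSL1 (185.9 ± 1.31). CD44 and AXL differed by less than the sum of their SDs, and CAV1 lay below both. WNT5A, a noncanonical ligand tied to invasion, had 87.29, 79.05 and 85.92 CPM. ROR2, a receptor of WNT5A, and MYL9, a myosin light chain, had no count.

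Cadherins were scarce. CDH1 and CDH2, the epithelial and the neural cadherin, had 0.5 and 1 counts over the 3 Ctrl libraries. Of 21 cadherin genes, 4 were at 1 CPM or more and none was at 10 CPM, namely CDH24 (9.189, 8.213 and 7.811 CPM), CDH12 (6.97 ± 0.402 CPM), CDH11 (3.44 ± 0.813 CPM) and CDH4 (1.8 ± 0.381 CPM). Several factors that are known to repress CDH1 were present, and their part in its level was not tested. ZEB1, a zinc finger repressor, had 84.3, 91.98 and 85.03 CPM, SNAI2 had 38.75, 40.65 and 36.84 CPM and TWIST1 had 18 ± 0.636 CPM. In the list of factors of the epithelial to mesenchymal switch, which is not limited to repressors of CDH1, 10 of 12 were at 10 CPM or more. SNAI1 had 8.5 counts over the group. Among other adhesion molecules were CD44 as above, ALCAM at 589.8 ± 10.1 CPM and MCAM, the melanoma adhesion molecule, at 81.5 ± 6.4 CPM. ICAM1 was at 10.49, 10.68 and 10.65 CPM, and 14 of 22 adhesion molecules were at 1 CPM or more.

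Promoter sequences of 4 of these genes are shown because they differ in RPKM and in CG content. A window runs from 250 bases before to 50 bases after a RefSeq gene start (GRCh38.p14), and 15334 of the 19218 protein-coding genes had one. The 4 below belong to the 2 pigment genes TYR and MLANA, at 0 and 0.318 RPKM, and the 2 invasive state genes AXL and EGFR, at 276.5 and 26.6 RPKM. All 4 lie on the plus strand and are written 5′ to 3′ with capitals for each CG and, in TYR, for the letters CATGTG, the core of the sites to which MITF is known to bind. In order they are MLANA at chr9:5890639-5890938, TYR at chr11:89177625-89177924, AXL at chr19:41218973-41219272 and EGFR at chr7:55018767-55019066.
MLANA: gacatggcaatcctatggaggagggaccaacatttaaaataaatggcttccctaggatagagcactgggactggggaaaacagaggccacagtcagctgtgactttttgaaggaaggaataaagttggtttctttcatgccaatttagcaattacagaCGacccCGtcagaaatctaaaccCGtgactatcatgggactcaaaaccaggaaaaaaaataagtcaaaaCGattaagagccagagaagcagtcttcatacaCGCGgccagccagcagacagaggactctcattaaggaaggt
TYR: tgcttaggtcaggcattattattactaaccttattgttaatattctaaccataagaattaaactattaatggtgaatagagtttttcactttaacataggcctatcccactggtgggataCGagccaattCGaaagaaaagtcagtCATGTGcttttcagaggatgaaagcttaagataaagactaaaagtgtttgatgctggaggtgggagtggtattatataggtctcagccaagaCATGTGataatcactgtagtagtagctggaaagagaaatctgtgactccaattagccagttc
AXL: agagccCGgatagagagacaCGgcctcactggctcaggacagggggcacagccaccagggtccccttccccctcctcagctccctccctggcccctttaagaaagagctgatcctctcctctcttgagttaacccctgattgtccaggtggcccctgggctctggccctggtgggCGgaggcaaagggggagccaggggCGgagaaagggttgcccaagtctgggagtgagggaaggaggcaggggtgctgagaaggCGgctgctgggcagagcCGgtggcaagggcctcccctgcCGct
EGFR: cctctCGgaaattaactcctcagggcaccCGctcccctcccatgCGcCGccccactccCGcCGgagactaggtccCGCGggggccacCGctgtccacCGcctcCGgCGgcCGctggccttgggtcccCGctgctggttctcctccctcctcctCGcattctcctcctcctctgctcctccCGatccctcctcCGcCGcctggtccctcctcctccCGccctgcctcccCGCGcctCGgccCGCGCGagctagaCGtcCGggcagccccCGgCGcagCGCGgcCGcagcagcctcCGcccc
The TYR window held 2 CG and 2 copies of CATGTG, beginning 104 and 12 bases before the gene start, and MLANA held 6 CG, with none of the letters CATGTG. AXL held 7 CG and EGFR 33. The letters CATGTG, read on both strands, were in 47.1% of 17 pigment gene windows, in 45% of 20 HOX gene windows and in 8.3% of all windows. Pigment genes with these letters included TYR at 0 and GPNMB, GPR143 and MC1R at 33.7, 64.5 and 71.5 CPM. The E-box CACGTG was in none of the 4 windows on either strand, nor was the AP-1 core TGANTCA, with any letter at N, nor the TEAD core GGAATG. They were in 8.93%, 5.74% and 11.6% of all windows. Across protein-coding genes the windows of genes at low levels held fewer CG. The median was 6 CG for genes with no count in Ctrl (n = 3401), 12 for genes counted below 1 CPM (n = 2302), 23 from 1 to 10 CPM, 27 from 10 to 100 CPM and 28 from 100 to 1000 CPM, against 22 over all windows. These classes are by CPM and take no account of transcript length, and among genes with a count the highest and lowest of 3 equal classes by RPKM differed by 9 in median CG. At least 10 CG were held by 40% of the windows of genes with no count and by 89.9% of those at 1 CPM or more. AXL, at 1310 CPM, has 7 and so lies on the other side of that number from most genes at 1 CPM or more. A match describes letters in the window, not binding.

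**Figure D2:**
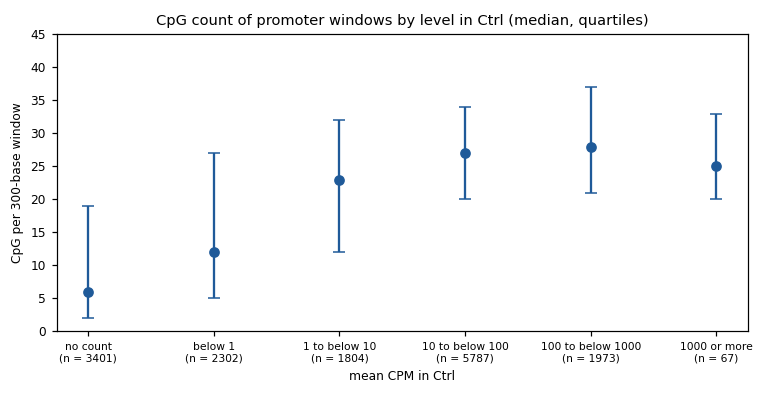
Number of CG in the 300-base promoter window of protein-coding genes, by mean CPM in Ctrl, with points at the median and bars to the lower and upper quartile. The median is 6 for genes with no count and 28 for genes from 100 to 1000 CPM, and the quartile bars of neighbouring classes overlap.

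Some receptor tyrosine kinases, the receptors of many growth factors, stood at high levels and others had no count. Of 58 receptor tyrosine kinases, 26 (44.8%) were at 1 CPM or more, against 60.3% of protein-coding genes, and 14 had no count. By RPKM, AXL (276.5 ± 2.79) led EPHA2 (76.6 ± 1.21), MET (47.7 ± 1.49), RYK (28.4) and EGFR (26.6 ± 0.707), and EPHB4 followed at 19.7. RYK and EGFR lay closer to each other than to MET above them. EPHA2, an ephrin receptor, had 306.8, 298.1 and 306 CPM and MET, the hepatocyte growth factor receptor, had 220.7, 227.9 and 214.1 CPM. DDR2, a collagen receptor with no length in the table used, had 236.3 ± 6.04 CPM. KIT, the receptor of melanocyte survival, had 0 counts in each library, as did ERBB4 and FGFR2. GAS6, the ligand of AXL, was itself at 379.3, 366.7 and 380.8 CPM, so that both partners were counted in the same libraries.

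TNFRSF1A, IL6ST and IL1R1, receptor chains for TNF, IL-6 and IL-1, had RPKM of 84.4 ± 1.66, 16.3 ± 0.359 and 2.89 ± 0.135. TNFRSF1A, the main TNF receptor, had 186.6, 184.6 and 191.7 CPM, and TNFRSF1B, the other, had 0 counts. By RPKM the TNF receptor family was led by TNFRSF12A (109.2 ± 3.22), LTBR (96.3 ± 3.47), TNFRSF1A and TNFRSF21 (78.2 ± 1.13), and 16 of its 29 genes were at 1 CPM or more. IL6ST, the shared signal chain of the IL-6 family, had 141.9, 148 and 143.4 CPM, and IL6R, the chain that binds IL-6, had 22.97, 21.25 and 22.37 CPM. IL1R1 and IL1RAP, the 2 chains of the IL-1 receptor, had 14.08, 15.3 and 15.27 CPM and 7.99, 8.418 and 6.036 CPM, and with the longest transcript IL1RAP was at 4.51 CPM. IFNGR1 had 12.38, 12.93 and 14.2 CPM. Of 40 interleukin and interferon receptor genes, 24 were at 1 CPM or more, and IL13RA2, a decoy receptor, was highest by RPKM at 28.3 ± 2.42. TGFBR2 had 286.2, 286.2 and 285.1 CPM, and 11 of 14 TGF-beta and BMP receptors were at 1 CPM or more.

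**Figure D3:**
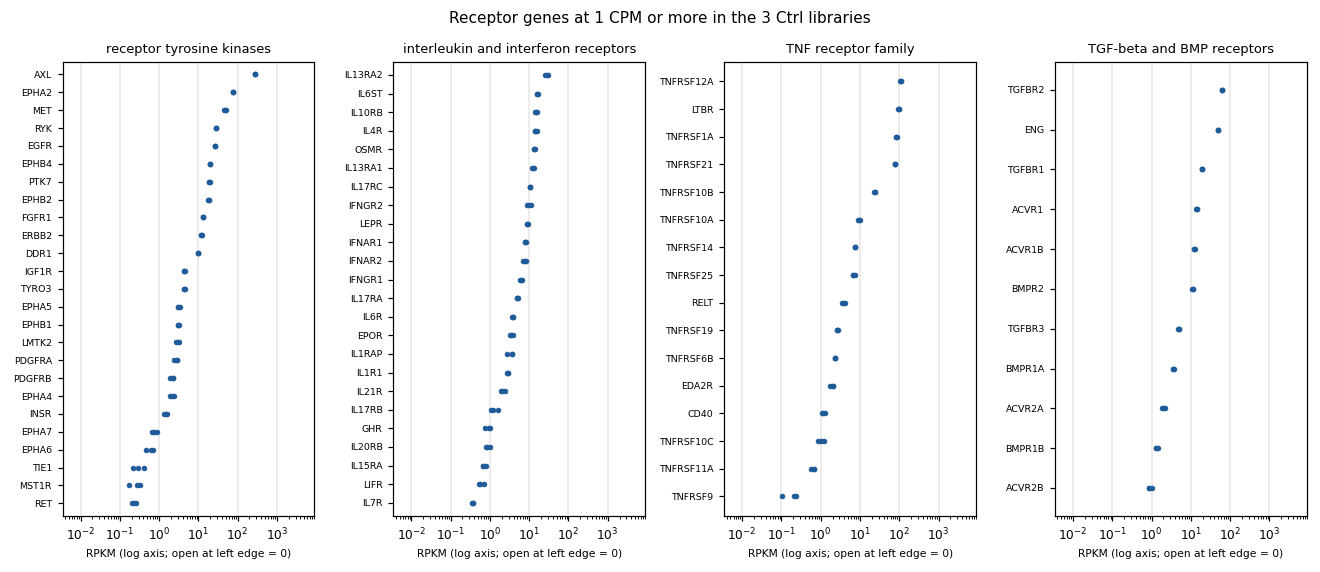
Level in RPKM, on a log axis, of receptors at 1 CPM or more in 4 families, with 1 point for each of the 3 Ctrl libraries. AXL stands to the right of every other receptor kinase, and the interleukin receptors lie below 100 RPKM.

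Sensors of microbial ligands were on in part, and nearly all chemokine receptors were below 1 CPM. TLR2 and TLR4, receptors of bacterial lipoproteins and lipopolysaccharide, had 0 counts in each library and 0.5, 0 and 1 counts. TLR6, the partner of TLR2, had 6.991, 8.007 and 7.989 CPM, and NOD1, a sensor of bacterial peptidoglycan, had 14.18, 13.55 and 12.78 CPM. MAVS, the adaptor of RNA sensing, had 349.1 ± 6.87 CPM, IFI16, a DNA sensor, 147.8 ± 5.44 CPM and EIF2AK2, the RNA-dependent kinase, 141.9 ± 2.95 CPM. Of 25 sensors and adaptors, 14 were at 1 CPM or more. CXCR2, the receptor of CXCL1, CXCL5 and CXCL8, had 0 counts in each library, and 12 of 22 chemokine receptors had no count. Only CXCR5 passed 1 CPM (2 genes did without the third Ctrl library), with 53.83, 57.49 and 53.08 CPM. That level is uncertain: 88.6% of the exon bases of CXCR5 lie in exons of BCL9L on the opposite strand, BCL9L was at 218.2 CPM, and the sources used here do not say if strand entered the counting. The second CXCR5 transcript had 85 counts over the group, against 1697 for the first.

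Other receptors on in Ctrl included those of thrombin and lipid mediators. F2R, the thrombin receptor, had 126, 128.2 and 131.5 CPM and LPAR1, a lysophosphatidic acid receptor, 88.89, 88.08 and 90.89 CPM, and 21 of 31 G protein-coupled receptors were at 1 CPM or more. NOTCH2 had 276.6 ± 6.81 CPM and FZD2, a WNT receptor, 126 ± 2.46 CPM. Nuclear receptors at 1 CPM or more were 29 of 48. NR1H2, the oxysterol receptor, led them by RPKM with 52.7, and NR3C1, the glucocorticoid receptor, had 164.9 ± 5.61 CPM. Of 32 genes linked to binding and uptake of vesicles, 23 were at 1 CPM or more, among them RAC1 (439.6 ± 0.588 RPKM), ITGB1 (310 ± 5.2 RPKM) and CAV1.

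Ctrl cells expressed few chemokines. Only 5 of 38 (13.2%) were at 1 CPM or more, against 60.3% of protein-coding genes, and 24 had no count. CXCL5, which attracts neutrophils, had 28.76, 26.28 and 29.65 CPM, CCL28, a mucosal chemokine, 20.97, 23.92 and 20.95 CPM, and CXCL1 13.18, 11.29 and 13.49 CPM. These 3 chemokines lay close to each other by RPKM: CCL28 at 14.5 ± 1.13, CXCL1 at 11.5 ± 1.09 and CXCL5 at 11.1 ± 0.688. CXCL8, a neutrophil attractant, had 1.698, 2.053 and 2.13 CPM. CCL2, which attracts monocytes, had 0.5, 0.5 and 1.5 counts. CXCL1, CXCL2 and CXCL3 share similar sequence, so their separate counts are uncertain.

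A few cytokine genes were on. Of 56 interleukins, interferons and TNF ligands, 13 (23.2%) were at 1 CPM or more and 24 had no count. LIF, which signals through IL6ST, had 34.76, 32.85 and 32.66 CPM and CSF1, the macrophage growth factor, 26.17, 24.23 and 27.69 CPM. IL11 had 13.5 ± 1.78 CPM. IL6 had 2.996, 4.106 and 3.728 CPM and IL1B 4.594, 5.646 and 4.971 CPM. Both stood above the level of 3 counts in a library, 0.267 to 0.309 CPM, in all 3. TNF, IFNB1 and IFNG had no count.

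Of 62 growth factors, 39 (62.9%) were at 1 CPM or more, a share close to the 60.3% of protein-coding genes. VEGFA, the angiogenic factor, had 208.6, 204.9 and 211.1 CPM, TGFB1 115.7, 113.3 and 112.2 CPM, and FGF5 141.6, 145 and 132.8 CPM. By RPKM the order was MIF (332.2 ± 25.8), VEGFA (161.9 ± 2.42), GAS6 (150.8 ± 3.11), CCN1 (133.1), CCN2 (49) and TGFB1 (41.1 ± 0.637). The VEGFA value uses a transcript length of 1286 bases, and the place of VEGFA in this order rests on that length. MIF shares 61.9% of its exon bases with MIF-AS1 on the opposite strand, which was at 324.4 CPM, and its level is uncertain for that reason.

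**Figure D4:**
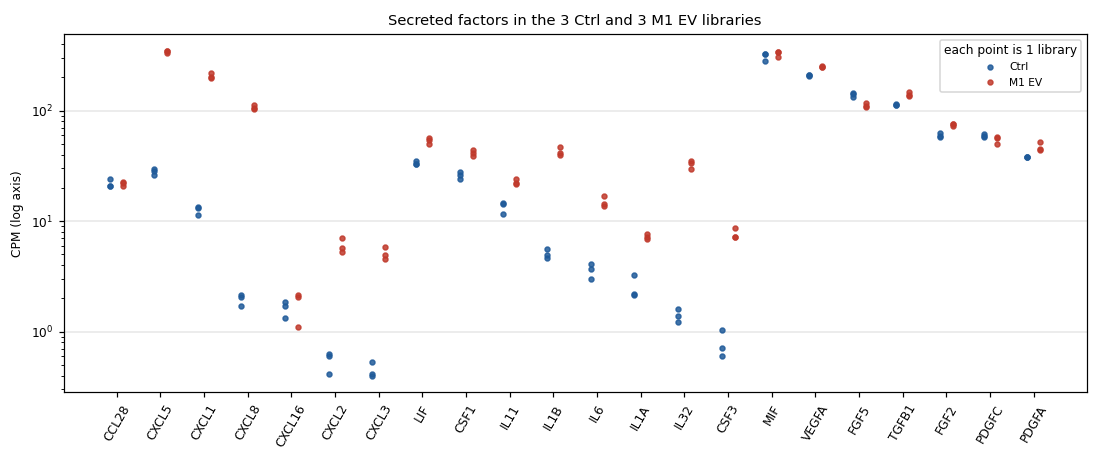
CPM on a log axis of 22 chemokines, cytokines and growth factors, with 1 point for each of the 3 Ctrl and 3 M1 EV libraries. In Ctrl the points of a gene lie close together, and in M1 EV the points of CXCL8, CXCL5 and CXCL1 all lie above those of Ctrl.

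Matrix genes included 1 chain of collagen I without the other, 2 chains of collagen VI, laminins and fibronectin. FN1 had 1622, 1605 and 1608 CPM and SPARC 1833, 1808 and 1913 CPM. COL1A1, a collagen I chain, had 1649, 1629 and 1660 CPM, while its partner chain COL1A2 had 1, 0 and 0.5 counts. The single RefSeq transcript of each gene gave these values. COL6A1 and COL6A2 had 917.9, 880.4 and 960.4 CPM and 1061, 1043 and 1103 CPM, while COL6A3, the chain that joins them, had 6.792, 4.928 and 6.746 CPM. COL6A2 (308.8 ± 8.8 RPKM) and COL6A1 (217 ± 9.45 RPKM) stood far above COL6A3 (0.573 ± 0.0989 RPKM). Chains of laminin, LAMC1 (104.6 ± 0.942 RPKM) and LAMB1 (50.7 ± 0.696 RPKM), were present. COL4A1 and COL4A2, the basement membrane collagen, had 0.5 and 2 counts over the group. In all, 39 of 53 matrix genes (73.6%) were at 1 CPM or more.

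Matrix-degrading enzymes included MMP14, a membrane protease that activates MMP2, at 463.2, 441.6 and 455.7 CPM. PLAU, urokinase, had 370.5, 357 and 380.9 CPM, and shares 31.1% of its exon bases with C10orf55 on the opposite strand, which was at 52.7 CPM. MMP2 had 366.7 ± 8.47 CPM. MMP1, the collagenase, had 1.898, 2.464 and 1.065 CPM, and MMP9 had no count. CTSB, a cathepsin, had 331.8 RPKM, and 27 of 39 proteases and inhibitors were at 1 CPM or more.

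Cell cycle and ERK output genes were all on. All 28 proliferation genes were at 1 CPM or more, and 22 were at 100 CPM or more. MKI67, the proliferation marker, had 479, 463 and 408.8 CPM, TOP2A, the mitotic topoisomerase, 555.9, 590.5 and 548.4 CPM, and FOXM1, a mitotic factor, 440.5, 432 and 442.7 CPM. All 24 genes of ERK output were at 1 CPM or more, with CCND1 at 537.5, 530.5 and 548.6 CPM and FOSL1 at 309.6, 308.4 and 312.6 CPM. HMGA2, a chromatin factor, had 527.4 ± 2.48 CPM. In the driver list 28 of 30 genes were at 1 CPM or more and KIT and PREX2 had no count. NRAS had 161.7 ± 4.06 CPM. CDKN2A, often deleted in melanoma, was present at 28.37, 29.15 and 29.29 CPM, and CDKN2B at 7.99, 8.213 and 7.9 CPM. The 5 transcripts of CDKN2A ranged from 478 to 896.5 counts over the group. TERT, the telomerase gene, had 1.598, 1.848 and 1.953 CPM. BIRC5 and MCL1, which block cell death, led the survival list with 91.8 ± 0.838 and 73.9 ± 0.621 RPKM, and 18 of its 22 genes were at 1 CPM or more.

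Positional and tumour antigen genes were partly on. Of 39 HOX genes, 23 were at 1 CPM or more and none was at 100 CPM, and the HOXB, HOXC and HOXD clusters held the 6 highest by RPKM, with HOXB7 (14.9), HOXB2 (12.8) and HOXC10 (11.8) at the top. Of 41 cancer-testis antigens, 12 were at 1 CPM or more and 23 had no count. PRAME had 107.7, 99.17 and 104.3 CPM, MAGEA10 126.5, 130 and 133.7 CPM and IGF2BP3, an RNA-binding protein, 176.7, 166.5 and 171 CPM. MAGEA1 had 84.9, 90.75 and 90.8 CPM. MAGEA6 had 83.1 ± 1.33 CPM and MAGEA3, its near-identical copy, 9.06 ± 0.175 CPM, and the split between the pair is uncertain. CTAG1B had no count.

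Class I antigen presentation was on throughout. All 22 genes were at 1 CPM or more, and B2M, the light chain, had 431.1, 450.5 and 437.2 CPM. HLA-C had 173.7, 168.6 and 187.3 CPM and HLA-B 38.55, 42.19 and 43.67 CPM. By RPKM, HLA-C (114.9 ± 6.3) stood above HLA-B (26.8 ± 1.7), and reads shared by these similar genes make the split uncertain. Class II was at or near 0 but for CIITA and CD74, at 9.788, 13.14 and 10.47 CPM and 11.59, 10.06 and 11.54 CPM, and 8 of 12 class II genes, HLA-DRA among them, had no count. The CIITA value depends on the transcript: 1 of its 4 transcripts had 6 counts over the group and another 343.5, and with the longest one CIITA was at 0.194 CPM. CIITA exons also share 2416 bases with those of DEXI on the opposite strand, which was at 15.8 CPM. The CIITA transcript used is 2344 bases long, so its level is uncertain for that reason too. CD274 (PD-L1) had 7.391, 4.517 and 6.746 CPM, LGALS1, a secreted galectin, 1103, 1046 and 1166 CPM, and NT5E, which makes adenosine, 421.5, 418.1 and 416.8 CPM. Of 27 checkpoint ligands, 14 were at 1 CPM or more.

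Markers of blood cells were at or near 0. PTPRC, the leukocyte marker, had 0 counts in all 3 libraries. Of 29 macrophage markers, 2 were at 1 CPM or more, CD68 (54.03, 60.88 and 55.12 CPM) and CORO1A (1.92 CPM), and 13 had no count, SPI1, CD163, C1QA and MARCO among them. CD68 shares 81.7% of its exon bases with an unnamed gene model on the same strand. The summed level of the macrophage markers was 57.83 to 65.29 CPM in Ctrl and 69.75 to 71.63 CPM in M1 EV, and their part in the results below was not tested. Of 24 T and B cell markers 1 was at 1 CPM or more, CD7 at 4.1 ± 0.622 CPM, and none of 16 erythroid and liver markers was. Of 15 endothelial markers 5 were (3 without the first Ctrl library), with ROBO4, a guidance receptor, at 12 ± 0.307 CPM. Fibroblast markers were 6 of 16 at 1 CPM or more, and all 6 were at 10 CPM or more, with 1 at 100 CPM or more. The list summed to 1750 to 1781 CPM in Ctrl, and 4 of its genes, THY1 and DCN among them, had no count. Of 17 neuronal and glial markers 7 were, among them TUBB3, a tubulin also seen in melanoma, at 452.2, 439.2 and 474.3 CPM. Of 31 epithelial and keratinocyte markers, 10 were at 1 CPM or more, 4 were at 10 CPM or more and 13 had no count. KRT18 (155.3, 158.3 and 165.8 CPM), KRT10 (41.4 CPM) and KRT8 (24.8 ± 0.324 CPM) were among the 4, while EPCAM and most others had no or few counts.

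**Figure D5:**
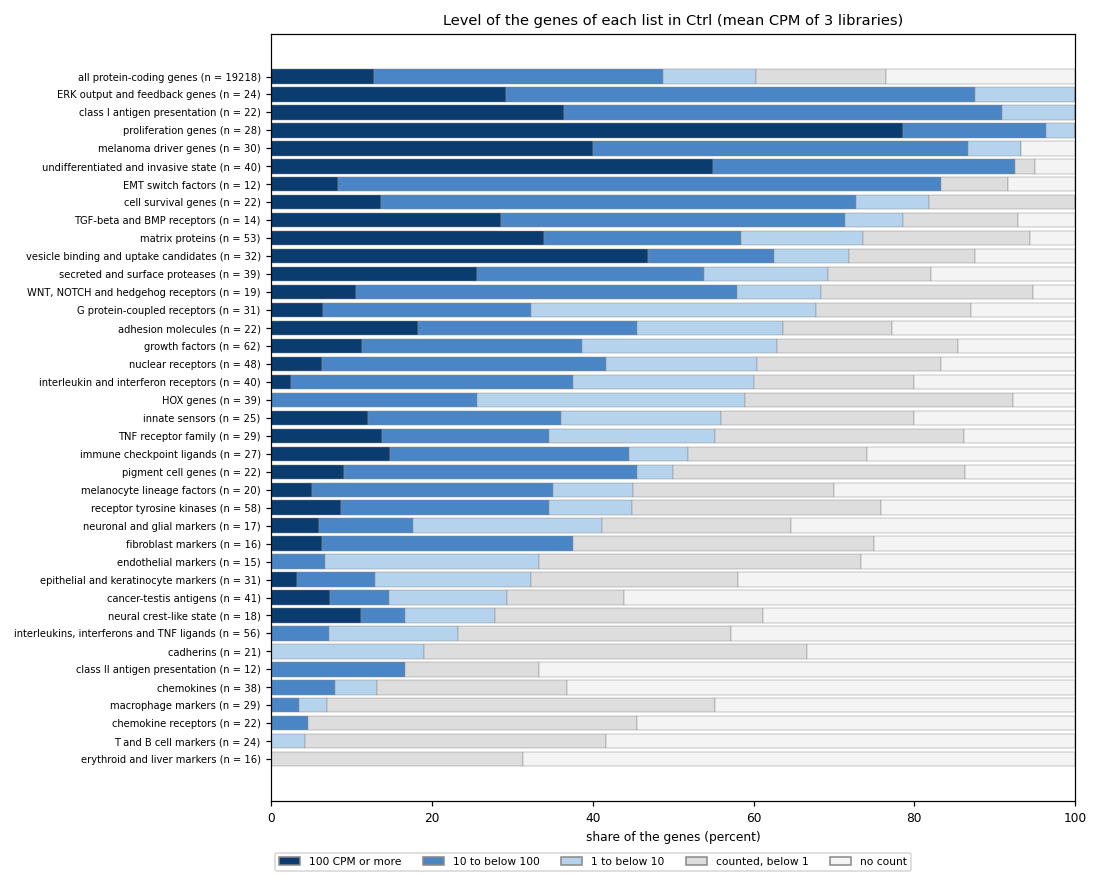
Share of the genes of each list, in percent, by mean CPM in the 3 Ctrl libraries, with all 19218 protein-coding genes in the top bar and the lists below in falling order of the share at 1 CPM or more. The undifferentiated and invasive list has 37 of 40 genes at 1 CPM or more, and chemokines have 5 of 38.

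The 3 Ctrl libraries differed little beyond counting error below 100 CPM, and by more than counting error above it. The median coefficient of variation (CV) was 12.4% for genes from 1 to 10 CPM, where counting alone gives 15.9%, and 4.5% from 10 to 100 CPM, where counting gives 5.26%. It was 2.69% against 2.41% from 100 to 1000 CPM and 2.13% against 0.847% at 1000 CPM or more. A median CV of 3 values lies below the CV behind it, so these counting values are somewhat high for the comparison. Between pairs of Ctrl libraries, chi-square per degree of freedom was 1.235 to 1.476 over 13091 to 13100 genes, where counting alone gives about 1. Of 7171 genes from 10 to 100 CPM, 11 had a CV above 20%, and the 8 named by the rule with the largest excess over counting were PIGA, NFKBIE, PAFAH2, EMILIN2, RAB6B, ZNF219, KIAA0513 and ANKRD44. NFKBIE, an inhibitor of NF-kB, had 7.79, 12.63 and 9.941 CPM and PIGA, an enzyme of the GPI anchor, had 12.98, 11.7 and 7.456 CPM. The lowest library was the first for NFKBIE and the third for PIGA.

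How the Ctrl level relates to the vesicle groups was read gene by gene against the same 3 libraries, and the 3 comparisons share these controls. The fit over all 12 libraries had a biological CV of 2.59%. That is a spread between libraries that may be technical, so the p-values may not cover differences between separate cultures. Of 13109 genes tested, M1 EV gave 3681 calls (28.1%) at an adjusted p below 0.05 in edgeR's quasi-likelihood test, 1881 higher (14.3%) and 1800 lower (13.7%), with M0 EV at 2 (0.0153%) and M2 EV at 6 (0.0458%). The M0 EV calls were UNC5B, lower, and MT-RNR1, higher, and UNC5B was also lower among the 6 of M2 EV, with CXCL5 and ESM1 higher and PKNOX2, SECTM1 and TNFRSF21 lower. These genes were chosen after their values were seen. Single libraries decided these small counts. M0 EV had 86 calls without M0 EV replicate 1, 1 without M0 EV replicate 3 or Ctrl replicate 2, and 0 without M0 EV replicate 2 or Ctrl replicate 3. M2 EV had 24 calls without Ctrl replicate 2, 1 without Ctrl replicate 3 or M2 EV replicate 1 or 2, and 0 without Ctrl replicate 1 or M2 EV replicate 3. In M1 EV the share called rose with the Ctrl level, from 14.4% of genes from 1 to 10 CPM to 43.9% from 100 to 1000 CPM. The median counting CV fell from 15.9% to 2.41% over these classes, so smaller changes can be called at higher levels. The share called is thus no measure of how strongly a class changed. Calls of 2-fold or more were 37 higher and 49 lower among genes from 1 to 10 CPM, and 17 higher and 16 lower from 10 to 100 CPM. From 100 to 1000 CPM there were 0 higher and 0 lower, and at 1000 CPM or more 0 higher and 1 lower. Genes below 1 CPM in Ctrl are left out here, since many pass the filter on low counts only where another group is higher.

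Several secreted factors were higher in M1 EV than in Ctrl. CXCL8 went from 1.96 ± 0.231 CPM in Ctrl to 104.8, 103.7 and 112 CPM in M1 EV, 5.76 ± 0.089 (SE) on the log2 scale (edgeR adjusted p = 1.81e-36). CXCL5 went from 28.2 ± 1.75 to 349.5, 331.2 and 346.6 CPM (log2 3.6 ± 0.047, edgeR adjusted p = 1.02e-38). IL1B went from 5.07 ± 0.533 to 41.78, 46.66 and 39.77 CPM (log2 3.08 ± 0.094). The groups did not overlap for any of them. Of the 5 chemokines at 1 CPM or more in Ctrl, 3 were higher and 0 lower, and of the 13 such interleukins, interferons and TNF ligands, 7 were higher and 1 lower, against 14.6% and 14.1% of all tested genes at 1 CPM or more, sex-linked transcripts left out. CCL28 was at 22 ± 1.71 CPM in Ctrl and 21.9 CPM in M1 EV (log2 0.0022 ± 0.077, edgeR adjusted p = 0.99).

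Of the 9 lineage factors at 1 CPM or more in Ctrl, 2 were higher and 2 lower (22.2% each). The shares of all tested genes at 1 CPM or more were 14.6% and 14.1%, and 9 genes are too few to tell these apart. One of the higher calls, PAX3 (log2 0.23 ± 0.079, edgeR adjusted p = 0.035), was lost with DESeq2 (adjusted p = 0.147) and in 5 of the 6 edgeR fits without 1 library (adjusted p from 0.0511 to 0.124), all but that without Ctrl replicate 3. SOX9 fell by 0.41 ± 0.045 (log2, SE) and TFAP2A by 0.43 ± 0.078. Of 37 invasive state genes 13 were higher (35.1%) and 11 lower (29.7%), against 14.6% and 14.1% of all tested genes at 1 CPM or more. That background is at lower levels than this list, which has 22 genes at 100 CPM or more. Of all tested genes from 100 to 1000 CPM, 43.9% were called in either direction. AXL fell to 1037 CPM (log2 -0.34 ± 0.028, edgeR adjusted p = 1.28e-12), and CAV1 fell from 695.6, 680.3 and 689.3 to 431, 422.8 and 428.7 CPM (log2 -0.69 ± 0.03). All 17 class I genes that were called, of 22 (77.3%), were higher, led by HLA-B (log2 0.99 ± 0.064). Higher calls were 14.6% of all tested genes at 1 CPM or more. Calls in either direction were 29.3% of genes from 10 to 100 CPM and 43.9% from 100 to 1000 CPM. MITF was not tested, and MLANA (0.768 CPM in Ctrl, 1.09 in M1 EV) was not called (edgeR adjusted p = 0.343).

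Genes without a count in Ctrl stayed near zero in the vesicle groups too. Of 9570 such genes, sex-linked transcripts left out, 964 had a count in M1 EV, 1093 in M0 EV and 1135 in M2 EV. Above 3 counts over the 3 libraries were 20, 35 and 28 of them, and none reached 10 counts. ICAM4 and MMP9 had the most in M1 EV with 8.5 counts each, and TNF had 4. SOX10, TYR, KIT, CXCR2 and TLR2 thus had at most 3 counts in any group.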

How the data were processed

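The members, the gene lists and the rule for named genes were chosen with earlier results of these data known. Poly(A) RNA was sequenced in directional libraries, per the labels' protocols. The deposited values are expected counts per RefSeq transcript (70507 transcripts, multiples of 0.5) without normalization; the submitters' processing notes name STAR 2.6.1b, HOMER 4.10 and hg38, and the sources used here do not say if counting used strand. Each of 28084 genes was taken as its transcript with the most counts over the 12 libraries, rounded, and 334 transcripts without a name (at most 0.0623% of counts) were left out. CPM used edgeR 4.0.16 TMM factors (0.9929 to 1.007, R 4.3.3). RPKM used GENCODE 29 lengths, missing for 2120 genes and taken as the median of the gene for 1367. These lengths need not match the RefSeq models counted. MC1R, for example, had a length of 3099 bases in a gene placed from 89918862 to 89920972. Ranks by RPKM carry that uncertainty. One column name lacks a digit and was read as M0 EV replicate 1. Libraries held 9693930 to 14378307 gene counts, and floors cover counting error only.

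Vesicle groups were compared with Ctrl by edgeR's quasi-likelihood test over all 12 libraries (13109 genes after filterByExpr, 8 residual degrees of freedom), 2-sided, Benjamini-Hochberg adjusted. On simulated counts for M1 EV against Ctrl (12988 genes), it recovered 62% of genes changed 1.25-fold and 92% of those changed 2-fold, with 7 false calls. Named were 42 fixed genes, per list the 6 highest by RPKM and up to 3 largest M1 EV changes, the 15 highest genes, 8 with the largest excess CV and 8 without a Ctrl count with the most M1 EV counts. Genes named beyond that, such as partner chains and markers at 0, were chosen after their values were seen. Sequences are RefSeq's (GRCh38.p14). Alternatives were DESeq2 1.42.0, limma-voom (limma 3.58.1), RLE scaling, no filter, a replicate block, other transcripts, other CPM thresholds and each replicate left out. Sex-linked transcripts are not reported, and 2 further list members, kept in every count, are not reported by name here.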

Additional observations from a re-analysis of the deposited data

How the results depend on the processing

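The number of genes at 1 CPM or more in Ctrl (12741) and without a count (9671) stayed within 1.5 times of these values in all alternatives run, from 11982 at 2 CPM to 13605 at 0.5 CPM for the first. M1 EV calls ranged from 2553 with DESeq2 to 3755 with the replicate block. With DESeq2, M0 EV had 0 calls and M2 EV 1; without the filter on low counts they had 53 and 31; with only the groups compared M2 EV had 62. Leaving out 1 replicate gave 0 to 86 calls in M0 EV and 0 to 24 in M2 EV. Deviations of same-numbered Ctrl and vesicle libraries had correlations from -0.0474 to 0.0283. Much of such a deviation is counting error, so this check cannot tell if the numbers pair samples, and the labels do not say. The replicate block gave 20 calls in M0 EV and 9 in M2 EV. The difference in median CG count was 20 between genes at 1 CPM or more and genes without a count, and 9 between the highest and lowest of 3 equal classes by RPKM of genes with a count. At 2 CPM, chemokines fell from 5 to 3 genes, and with the longest transcript class II genes fell from 2 to 0. With the longest transcript IL1RAP was at 4.51 CPM. Of 1580 refitted fold changes of named genes 110 lost their call and 0 changed sign. By gene, 33 of the 158 named M1 EV fold changes lost their call in at least 1 setting. The causes were not tested. Genes at a few counts are measured with large counting error, and depth limits what can be said of them.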
